A study of Mus musculus with 12 samples.

Results

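The genes described here build, cut or crosslink the extracellular matrix: the matrix metalloproteinases (Mmp), the tissue inhibitors of metalloproteinases (Timp), the ADAMTS proteases (Adamts), the ADAMTS-like proteins (Adamtsl) and the lysyl oxidases (Lox). They were chosen by symbol alone among the protein-coding genes of the count table, each family apart. This gave 55 genes of 21897 protein-coding genes and 55401 genes in all, with 22 Mmp, 4 Timp, 19 Adamts, 5 Adamtsl and 5 Lox genes. A further symbol of the same form, Mmp1a, is annotated as a polymorphic pseudogene and was left out.

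RNA-seq counts came from the livers of 6 iTgMir483 and 6 Control female mice, 15 weeks old, on a C57BL/6J background. The iTgMir483 mice carry a Tet-off Mir483 transgene in single copy at Rosa26, a locus active in most tissues, so the transgene is not restricted to hepatocytes. The labels name the CMVxmiR cross for the mice of both groups, in which the mothers were homozygous for CMV-Cre, a general deleter, so transgenic mice and Controls share a maternal Cre allele. Doxycycline, which represses the transgene, was given to the mothers through pregnancy and was then withdrawn. Mir483, a microRNA gene, had 0 counts in every Control library and 318 to 761 counts in the iTgMir483 libraries, which matches the labels, although a poly(A) library does not measure the mature microRNAs. The study describes its controls as littermates, but the labels tie no mouse to a litter, and p-values measure the spread between these mice.

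Matrix metalloproteinases and ADAMTS enzymes are zinc proteases that are made as inactive precursors and act at the cell surface or outside the cell. Metalloproteinases cut collagens, elastin and many non-matrix proteins, while ADAMTS enzymes trim procollagens, proteoglycans and blood proteins, and TIMPs block the active site of both kinds of enzyme to different degrees. Lysyl oxidases oxidise lysines of collagen and elastin, which then form the crosslinks that stiffen a matrix. In liver, some genes of these families are known from scarring, where stellate cells, macrophages and endothelium are among their sources.

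The Control libraries held 12244123 to 30431286 counts and the iTgMir483 libraries 12415140 to 15846175. Control replicate 1 was least like its group, with a mean correlation of log2 levels with the other Controls of 0.966, against 0.977 to 0.983 for the others. In the iTgMir483 group these correlations ran from 0.9605 to 0.9746, lowest in replicates 4 and 1. Counts were compared with edgeR's quasi-likelihood test, and a gene was called changed when its adjusted p (Benjamini-Hochberg) was under 0.05 and its fold change over 1.5. Values per library are CPM, counts scaled to a common library size, and levels are compared between genes only as CPM per kilobase of exon (CPM per kb).

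Of the 55 genes, 29 passed the filter on low counts (edgeR's filterByExpr) and were tested, and 26 were not. Adamts9, Adamts7, Adamtsl1 and Loxl2 were changed, and each was higher in iTgMir483 livers. Changed genes were 13.8% of the tested members and 11.1% of all 13205 tested genes. In the higher direction the share of all tested genes was 8.41% and in the lower direction 2.73%, where no member was called (0 of 29 by edgeR, DESeq2 and limma-voom alike, and 0 of 29 with a negative difference at an unadjusted p under 0.05). Another gene, Adamts10, had an adjusted p under 0.05 with a smaller fold change, so that 5 members passed the p threshold alone, which 18.6% of all tested genes did. The groups did not overlap for Adamts9 and Adamtsl1, or 6.9% of the tested members, against 7.92% of all tested genes. A positive log2 fold change was seen for 24 of 29 members, with a median of 0.31, while 50.8% of all tested genes were positive, with a median of 0.01.

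**Figure D1:**
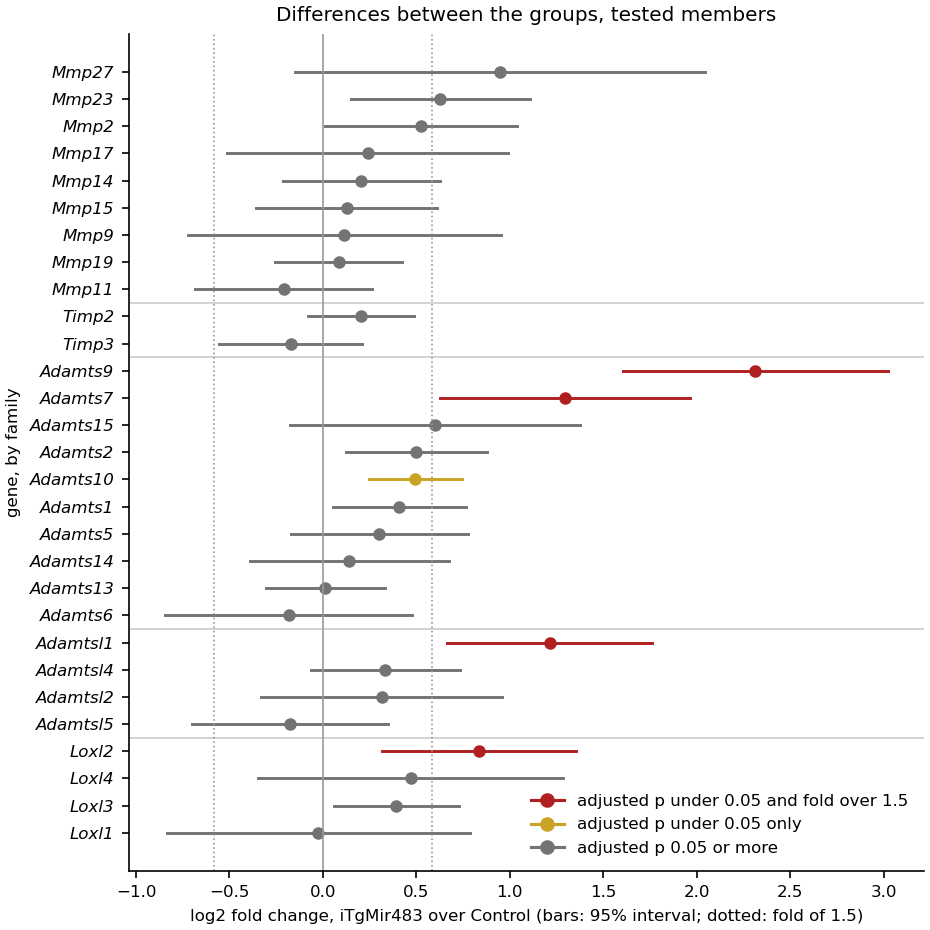
The log2 fold change of iTgMir483 over Control livers (horizontal axis) is plotted for each of the 29 tested genes, grouped by family, with bars for the 95% interval. The 4 changed genes, in red, are 3 of the Adamts and Adamtsl families and Loxl2, and the intervals of most Mmp and both Timp genes include 0.

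Among the metalloproteinases no gene was called changed, at 0 of 9 tested by edgeR, DESeq2 or limma-voom, and the median log2 fold change was 0.20. At an unadjusted p under 0.05 there were 2 by edgeR and DESeq2 (Mmp2 and Mmp23 in edgeR) and 1 by limma-voom. The liver's Mmp message was mostly that of 3 genes. Mmp19, a secreted enzyme that cuts basement membrane proteins, Mmp14, the membrane-anchored enzyme that activates pro-MMP2, and Mmp15, a second membrane-anchored enzyme, made 86.1% to 92.5% of the family's level per kb in Controls. In iTgMir483 livers they made 84.2% to 89.4%. Mmp19 had the highest level per kb of all 55 genes, at 16.1 to 24.4 CPM per kb in Controls, above the range of Mmp14 at 6.43 to 13.5 CPM per kb. Its exons overlap those of Gm47093 and Tmem198b on the other strand, and without knowing whether counting used strand, their reads cannot be told apart from its own. Below these, from Mmp14 down to Adamts1, the Control ranges of genes adjacent in the order overlapped.

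In CPM, Mmp19 (chromosome 10, 128790910 to 128800824, GRCm38) had a lowest, median and highest value of 57.0, 64.2 and 86.3 in Controls and 49.7, 67.8 and 101.7 in iTgMir483 livers. The iTgMir483 values lay on both sides of the Control range, and the log2 fold change was 0.08 (95% interval -0.26 to 0.42, adjusted p 0.752). Mmp14 (chromosome 14, 54431612 to 54445364) had 38.3, 67.3 and 80.2 CPM in Controls and 44.0, 73.2 and 98.5 CPM in iTgMir483 livers, a log2 fold change of 0.20 (95% interval -0.22 to 0.62, adjusted p 0.5). Mmp15 had 19.6 to 36.5 CPM in Controls and 13.6 to 37.5 CPM in iTgMir483 livers, and its wide Control range came from replicate 1, as the other Controls reached 23.0 CPM.

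**Figure D2:**
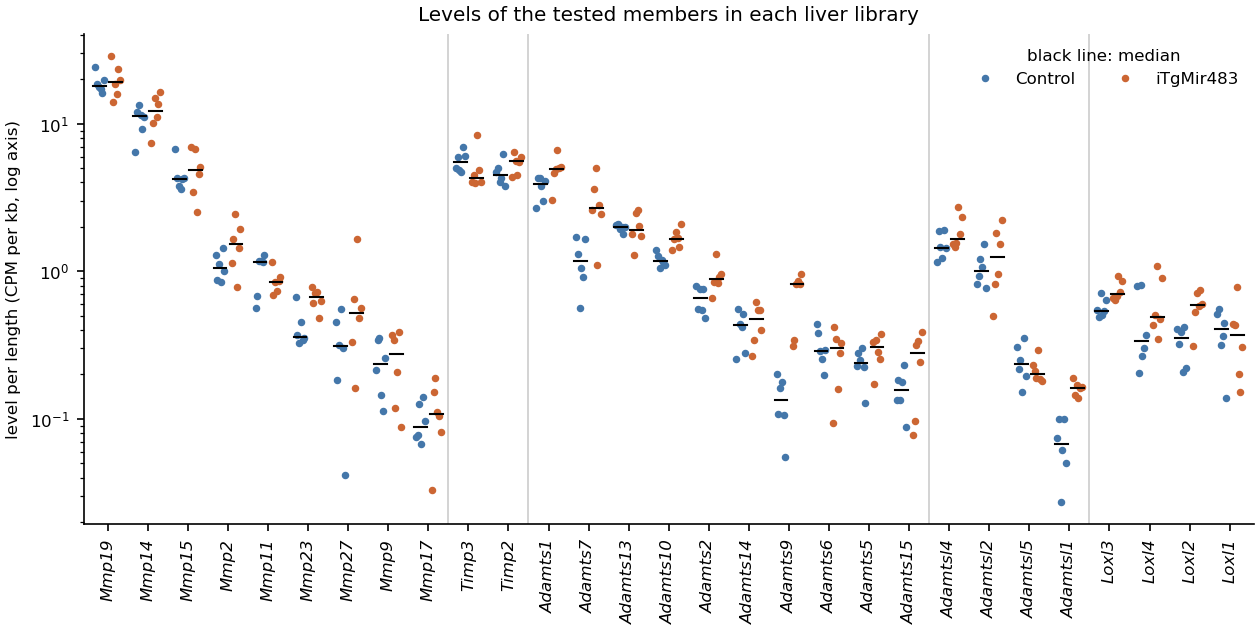
Each point is the level of a gene in 1 library, in CPM per kb on a log axis, for the 29 tested genes ordered within families by level, with Controls in blue, iTgMir483 livers in orange and black lines at the medians. Mmp19 and Mmp14 stand at the top, the 2 Timp genes near 5 CPM per kb, and the groups separate for Adamts9 and Adamtsl1.

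The gelatinases, which cut denatured collagen and type IV collagen, did not pass the test. Mmp2, the gelatinase of fibroblast-like cells, had 2.87, 3.57 and 4.82 CPM in Controls and 2.64, 5.20 and 8.22 CPM in iTgMir483 livers. In 4 of the 6 iTgMir483 livers it lay above every Control, while replicate 4 lay below every Control, and the adjusted p was 0.143 at a log2 fold change of 0.52 (SE 0.24). Of the 4, replicate 5 was barely above, at 4.825 against 4.822 CPM in the highest Control. Without iTgMir483 replicate 4, the lowest transgenic liver, the log2 fold change was 0.66 with an adjusted p of 0.0421 by the same edgeR test, a call. No other fit that left out 1 library gave a call. Without iTgMir483 replicate 3, the highest, the log2 fold change was 0.35 with an adjusted p of 0.327. Mmp9, the gelatinase of leukocytes, had at most 1.38 CPM in any library and a log2 fold change of 0.11 (SE 0.39).

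The other tested metalloproteinases were low. Mmp23, a membrane-bound enzyme that is shed, had 0.767, 0.843 and 1.57 CPM in Controls and 1.13, 1.57 and 1.82 CPM in iTgMir483 livers. Its highest Control was again replicate 1, and the log2 fold change of 0.63 (SE 0.22) had an adjusted p of 0.065. Without Control replicate 1 the adjusted p was 0.0182 with a log2 fold change of 0.80, which is a call. The other fits that left out 1 library gave none. Over all of them the log2 fold change ran from 0.57 to 0.80 and the edgeR adjusted p from 0.0182 to 0.122. Mmp11, known as stromelysin 3, had a log2 fold change of -0.21 (SE 0.22), the only negative one among the tested Mmp genes, although those of Mmp9 and Mmp19 were negative when certain libraries were left out. The exons of Mmp11 overlap those of Chchd10 on the other strand. Mmp17, a lipid-anchored enzyme, differed by 0.24 (SE 0.35).

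Few of the clustered Mmp genes passed the filter on low counts. Of the 22 Mmp genes, 9 lie side by side on chromosome 9, within 427.1 kb (7272514 to 7699585, GRCm38), in the order Mmp13, Mmp12, Mmp1b, Mmp3, Mmp10, Mmp8, Mmp27, Mmp20 and Mmp7. Of these, 1 passed the filter, against 8 of the 13 Mmp genes on other chromosomes. This cluster holds the inducible, secreted enzymes of the family, among them the interstitial collagenase Mmp13, the stromelysins Mmp3 and Mmp10, the macrophage elastase Mmp12 and matrilysin, Mmp7. Mmp1b, Mmp10 and Mmp20 had 0 counts in all 12 libraries, and Mmp13 had at most 3. The exons of Mmp12 and Mmp1b overlap on opposite strands. Mmp7 had 42 counts over the Controls and 50 over the iTgMir483 livers, and Mmp3 had 15 and 10.

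**Figure D3:**
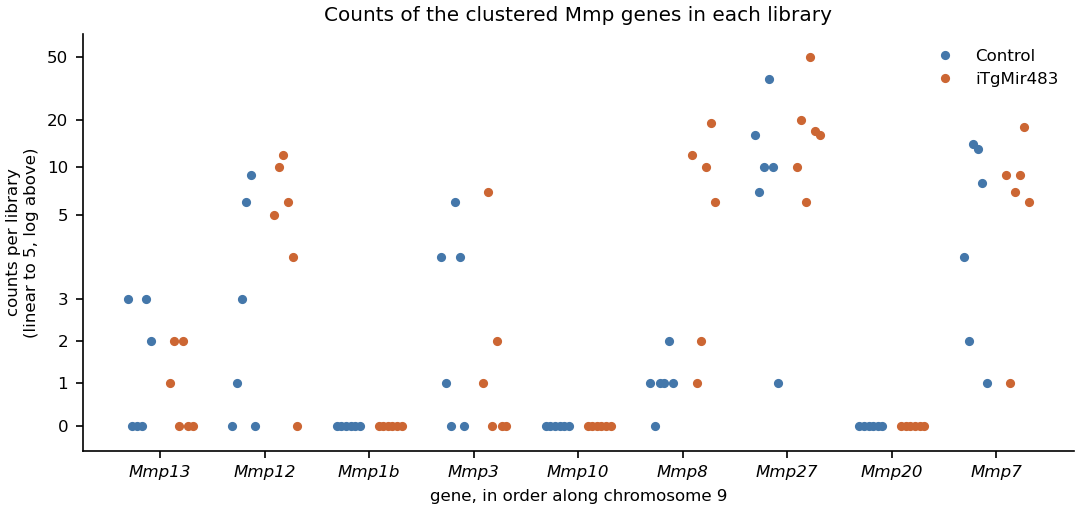
Counts per library of the 9 clustered Mmp genes are shown in their order along chromosome 9, with Controls in blue and iTgMir483 livers in orange, on an axis that is linear to 5 counts and logarithmic above. Mmp1b, Mmp10 and Mmp20 lie at 0 throughout, and Mmp8 reaches 19 counts in iTgMir483 livers and 2 in Controls.

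Promoters of the cluster are shown because most of them share a sequence that was found at no other gene of these families. In RefSeq's table (GRCm38.p6), with 250 bases before and 50 after each start, 36 of the 55 genes had an entry. The motif TGANTCA, which reads the same on both strands and covers TGACTCA and TGAGTCA, the sites of the Fos and Jun factors (AP-1), was searched in each. It was found at 7 of the 9 clustered genes and at none of the other members with an entry. Over all promoters of the table it was found in 7.81%, and over those of the members in 17.9%. Capitals mark the motif, and the position given is that of its first base relative to the start.

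Mmp13, position -35, chr9:7272459-7272505, plus strand: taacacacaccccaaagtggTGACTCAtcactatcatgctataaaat
Mmp12, position -44, chr9:7347310-7347356, plus strand: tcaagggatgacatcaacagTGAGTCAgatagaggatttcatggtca
Mmp3, position -46, chr9:7445756-7445802, plus strand: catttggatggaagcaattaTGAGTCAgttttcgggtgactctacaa
Mmp10, position -63, chr9:7502259-7502305, plus strand: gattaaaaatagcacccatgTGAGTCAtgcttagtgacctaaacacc
Mmp7, position -63, chr9:7692007-7692053, plus strand: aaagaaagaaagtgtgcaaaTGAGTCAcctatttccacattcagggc

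Mmp1b (TGAGTCA, position -93) and Mmp20 (TGAATCA, position -95) hold it as well. The remaining genes of the cluster, Mmp8 and Mmp27, lack these letters in their window. A match describes letters in a window and is not a measured binding site, and none of the genes with the motif passed the filter on low counts.

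Mmp27 was the tested gene of the cluster, with 0.0914, 0.683 and 1.23 CPM in Controls and 0.36, 1.15 and 3.66 CPM in iTgMir483 livers. The groups overlapped, the highest value was that of iTgMir483 replicate 4 alone, and the adjusted p was 0.215 at a log2 fold change of 0.95 (SE 0.51). Its neighbour Mmp8, 2.9 kb away, is the collagenase stored in neutrophil granules. Control replicates 1 to 6 held 1, 0, 1, 1, 2 and 1 counts of Mmp8, and iTgMir483 replicates 1 to 6 held 12, 1, 2, 10, 19 and 6. The iTgMir483 replicates 2 and 3 lay in the range of the Controls and the other 4 above it. Over the groups this was 6 against 50 counts, a ratio of 9.85 after scaling (exact 95% interval 4.22 to 28.1, counting error only), and the two-sided exact permutation p over mice was 0.0152. Mmp8 failed the filter, and without it edgeR gave a log2 fold change of 3.09 with an adjusted p of 0.00732.

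Summed levels of the marker lists of neutrophils, Kupffer cells and recruited macrophages were higher in iTgMir483 livers, while no tested lymphocyte marker was called higher. Of all tested genes 8.41% were called higher, and whether these markers and Mmp8 rose in the same livers was not tested. Of 8 neutrophil marker genes 3 were tested, and S100a9 and Csf3r were changed and higher. S100a8 was called higher too, but it passed the filter through the iTgMir483 livers, where it is high, so its call is not counted. Summed levels of the list were 3.58 to 6.14 CPM in Controls and 7.14 to 27.0 CPM in iTgMir483 livers. Ly6g, which defines neutrophils, had at most 3 counts in any library. Kupffer cell markers were higher for 7 of 8 genes. Their sums were 313.3 to 458.9 CPM in Controls (median 370.8) and 476.4 to 1363 CPM in iTgMir483 livers (median 624.5). Of 10 markers of recruited macrophages and monocytes 8 were tested and 6 were called higher. Among the 6, Itgam had 0 to 0.737 CPM in Controls and 0.582 to 5.7 CPM in iTgMir483 livers. It passed the filter mostly through the iTgMir483 livers, where it is high, so its call is set aside. The list's sums were 72.3 to 124.7 CPM in Controls and 166.7 to 323.1 CPM in iTgMir483 livers. Most of this was Lyz2 and Spp1, and Spp1 is also in the cholangiocyte list. Ccr2, the receptor that marks recruited monocytes, differed by -0.59 on the log2 scale (SE 0.24, adjusted p 0.108). Ly6c2 and Gpnmb were not tested and overlapped between the groups. Markers of T, B and NK cells gave 0 changed of 2 tested genes of 8 by edgeR, DESeq2 and limma-voom, with a median log2 fold change of -0.69 and 1 unadjusted p under 0.05, and their sums were 4.48 to 7.42 CPM in Controls and 2.79 to 5.20 CPM in iTgMir483 livers. Of this list Cd3g, a chain of the T cell receptor complex, was below the filter and did not overlap between the groups, at 0.65 to 1.10 CPM in Controls and 0.155 to 0.437 CPM in iTgMir483 livers. The other genes of the list below the filter overlapped between the groups. Of these, Cd3e, Ms4a1 and Klrb1c had lower mean CPM in iTgMir483 livers, and Cd8a and Nkg7 had higher mean CPM. In bulk tissue, more cells of a type and more RNA per cell cannot be told apart, and the part of these cells in the differences of Mmp8 or of any gene here was not tested.

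Of the remaining Mmp genes below the filter, Mmp12 had 19 counts over Controls and 37 over iTgMir483 livers, with 0 counts in Control replicates 1 and 6 and in iTgMir483 replicate 6, and an exact permutation p of 0.134. Mmp28, known as epilysin, had 78 and 41 counts, with 4 of 6 iTgMir483 livers below every Control. Its ratio was 0.621 (exact 95% interval 0.415 to 0.918 for counting error) and its exact permutation p over mice 0.0866, and its exons overlap those of 1700020L24Rik on the other strand. Mmp24, a membrane-type enzyme, had 14 and 15 counts, and Mmp16, Mmp21 and Mmp25 had at most 3 in any library, where no difference was detectable at this depth.

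The tissue inhibitors were represented by 2 of 4 genes. Timp2, which also helps MMP14 to activate pro-MMP2, and Timp3, the inhibitor that binds to the matrix and blocks ADAMTS enzymes, made 97.9% to 100% of the family's level per kb in Controls and 95.3% to 99.3% in iTgMir483 livers. Neither was called changed by edgeR, DESeq2 or limma-voom, and 0 of 2 had an unadjusted p under 0.05 in any of them. Timp3 (chromosome 10, 86300372 to 86349506) had 38.2, 44.7 and 56.7 CPM in Controls and 32.5, 34.7 and 68.2 CPM in iTgMir483 livers. A single iTgMir483 liver, replicate 4, lay above every Control, 4 lay below every Control, and the adjusted p was 0.532 at a log2 fold change of -0.17 (SE 0.18). Without that library the log2 fold change was -0.39 with an adjusted p of 0.0328 by edgeR, still under the fold threshold. The exons of Timp3 overlap those of Syn3 on the other strand.

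Timp2 (chromosome 11, 118301069 to 118355740) had 14.8, 17.5 and 24.3 CPM in Controls and 17.0, 21.7 and 25.0 CPM in iTgMir483 livers. The groups overlapped, with a log2 fold change of 0.21 (95% interval -0.08 to 0.49, adjusted p 0.301). Timp1, the inhibitor best known to rise in scarring liver, had at most 7 counts in any library, with 10 counts over the Controls and 14 over the iTgMir483 livers, and its ratio of 1.66 had an exact 95% interval of 0.684 to 4.16. Timp4 had at most 1 count. The summed Mmp level per kb divided by the summed Timp level per kb had a median of 3.97 in Controls (range 2.58 to 4.43) and 4.52 in iTgMir483 livers (range 2.66 to 5.71), and the ranges overlapped.

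The ADAMTS proteases held the largest difference of the 29 tested genes. Adamts9 (ENSMUSG00000030022, chromosome 6, 92772699 to 92943492, minus strand), a protease that cleaves the proteoglycans versican and aggrecan, had 3.01, 1.61, 2.44, 2.67, 1.61 and 0.823 CPM in Control replicates 1 to 6. In iTgMir483 replicates 1 to 6 it had 4.66, 5.14, 12.3, 13.0, 12.4 and 14.4 CPM. Replicates 1 and 2 were the lowest of the transgenic livers, 4 others lay close together above them, and the groups did not overlap. A log2 fold change of 2.31 (SE 0.33) came with an adjusted p of 0.00068 in edgeR's test, and the two-sided exact permutation p was 0.00217, the smallest that 6 against 6 mice can give. It stayed a call in every fit that left out 1 library (leave-one-out). Its exons overlap those of the genes A730049H05Rik and Gm15737 on the other strand, and since it is not stated whether counting used strand, reads of these genes cannot be told apart from its own.

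**Figure D4:**
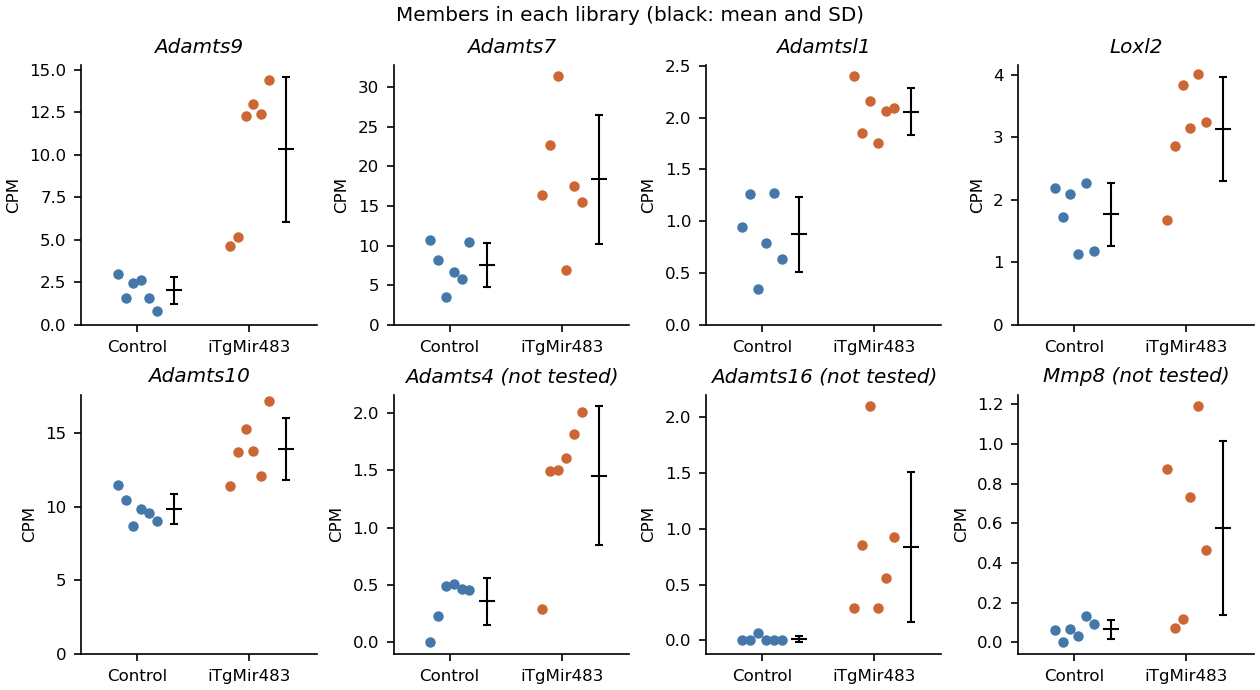
Each point is the CPM of a gene in 1 library, Controls in blue and iTgMir483 livers in orange, with the mean and SD in black, for the 4 changed genes, Adamts10 and 3 genes below the filter on low counts. Adamts9 and Adamtsl1 show a gap between the groups, Adamts7 and Loxl2 have 1 transgenic liver among the Controls, and Adamts16 had a single count in the 6 Controls.

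Adamts7 (ENSMUSG00000032363, chromosome 9, 90163069 to 90208071), a protease that cleaves cartilage oligomeric matrix protein, had 10.7, 8.17, 3.56, 6.63, 5.76 and 10.4 CPM in Control replicates 1 to 6 and 16.4, 22.7, 31.4, 6.96, 17.5 and 15.5 CPM in iTgMir483 replicates 1 to 6. In 5 of 6 transgenic livers it lay above every Control, and replicate 4 lay among them. With a log2 fold change of 1.30 (SE 0.31) the adjusted p was 0.0112, and the call held in every leave-one-out fit. Its exons overlap those of Tbc1d2b on the other strand. Adamts12, the other enzyme of this kind, had 49 counts over Controls and 82 over iTgMir483 livers, a ratio of 1.98 (exact 95% interval 1.37 to 2.88; exact permutation p 0.0238). It was below the filter, and without the filter edgeR gave an adjusted p of 0.135.

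The proteoglycanases, the enzymes that cut aggrecan and versican, had 1 call among 4 tested genes, that of Adamts9. Adamts1 had the highest level per kb of the ADAMTS genes, at 2.67 to 4.29 CPM per kb in Controls and 3.03 to 6.62 in iTgMir483 livers. In CPM it had 14.2, 20.9 and 22.7 in Controls and 16.1, 26.3 and 35.1 in iTgMir483 livers, with 5 of 6 above every Control. Its log2 fold change was 0.41 (SE 0.17) and its adjusted p 0.1. Adamts5, its neighbour 53.1 kb away on chromosome 16 and on the same strand, differed by 0.30 (SE 0.22), and Adamts15 by 0.60 (SE 0.36, adjusted p 0.267). Adamts8, which lies 20.1 kb from Adamts15 on chromosome 9, had 9 counts over Controls and 2 over iTgMir483 livers, and Adamts20 had 0 and 3.

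Adamts4 (chromosome 1, 171250421 to 171260637), the aggrecanase known to respond to inflammatory signals, was below the filter on low counts. Control replicates 1 to 6 held 0, 4, 7, 15, 7 and 5 counts of it, and iTgMir483 replicates 1 to 6 held 4, 21, 25, 22, 29 and 26. After scaling for library size, 5 of 6 transgenic livers had 1.5 to 2.01 CPM, above every Control, and replicate 1, with 0.291 CPM, lay among them. The ratio over the groups was 3.95 (exact 95% interval 2.73 to 5.84) and the two-sided exact permutation p was 0.0108. Without the filter edgeR gave a log2 fold change of 1.96 (SE 0.47) with an adjusted p of 0.0103.

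Adamts16 (chromosome 13, 70727802 to 70841811, minus strand) was nearly silent in Controls, with 1 count in replicate 3 and 0 in the others. The iTgMir483 replicates 1 to 6 held 4, 12, 35, 4, 9 and 12 counts. Every transgenic liver had more counts than any Control, with the highest in replicate 3. The ratio over the groups was 89.8, with an exact 95% interval of 15.7 to 3595 for counting error, and the exact permutation p was 0.00217. It was not tested in the filtered fit, and without the filter edgeR gave a log2 fold change of 5.57 with an adjusted p of 0.000174.

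The procollagen N-proteinases remove the amino-terminal propeptide of fibrillar collagens. Adamts2, the main enzyme for type I collagen, had 4.48, 6.14 and 7.47 CPM in Controls and 6.12, 8.22 and 12.2 CPM in iTgMir483 livers. In 5 of 6 transgenic livers it lay above every Control, and the log2 fold change of 0.50 (SE 0.18) had an adjusted p of 0.0632. Adamts14 differed by 0.14 (SE 0.25), and Adamts3, with 43 counts over Controls and 48 over iTgMir483 livers, was not tested.

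Adamts10, which takes part in the assembly of fibrillin microfibrils, had 8.71, 9.71 and 11.5 CPM in Controls and 11.4, 13.7 and 17.2 CPM in iTgMir483 livers. A single transgenic liver, replicate 1, lay just inside the Control range. The log2 fold change was 0.49 (SE 0.12) with an adjusted p of 0.00974, under the fold threshold. Adamts13, the protease that trims von Willebrand factor and is made by stellate cells in liver, had 8.77, 9.88 and 10.2 CPM in Controls and 6.35, 9.45 and 12.8 CPM in iTgMir483 livers. The Controls lay close together, the transgenic livers spread to both sides, and the log2 fold change was 0.01 (95% interval -0.30 to 0.33). Adamts6 differed by -0.18 (SE 0.31). Adamts17 and Adamts19 had at most 3 counts in any library, and Adamts18 had 0 in all 12.

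The ADAMTS-like proteins resemble ADAMTS enzymes without the protease domain and bind to microfibrils. Adamtsl1 (ENSMUSG00000066113, chromosome 4, 85514172 to 86428385) had 0.941, 1.26, 0.349, 0.786, 1.27 and 0.64 CPM in Control replicates 1 to 6 and 2.40, 1.86, 2.16, 1.76, 2.07 and 2.09 CPM in iTgMir483 replicates 1 to 6. The transgenic livers were closely grouped, and the groups did not overlap. With a log2 fold change of 1.21 (SE 0.26) it had an adjusted p of 0.00563, on 5 to 23 counts per Control library and 24 to 36 per iTgMir483 library. It had the lowest level per kb of the 29 tested genes in Controls. Adamtsl3, with 25 counts over Controls and 46 over iTgMir483 livers, did not overlap between the groups in CPM either (exact permutation p 0.00217), but was not tested, and without the filter edgeR gave an adjusted p of 0.122.

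The other ADAMTS-like genes overlapped between the groups. Adamtsl2, a regulator of TGF-beta availability that lies 69.8 kb from Adamts13 on chromosome 2, had 6.13 to 12.3 CPM in Controls and 4.0 to 17.9 CPM in iTgMir483 livers. Adamtsl4 had 4.83 to 8.04 and 6.14 to 11.5 CPM, with a log2 fold change of 0.33 (SE 0.19). Adamtsl5 had 0.718 to 1.67 and 0.851 to 1.39 CPM, with a log2 fold change of -0.18 (SE 0.25).

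Of the lysyl oxidases 4 of 5 genes were tested, and Loxl2 was called. Loxl2 (ENSMUSG00000034205, chromosome 14, 69609068 to 69695834), which crosslinks type IV collagen among other substrates, had 2.20, 1.73, 2.09, 1.13, 2.28 and 1.19 CPM in Control replicates 1 to 6 and 1.67, 2.85, 3.84, 3.15, 4.01 and 3.25 CPM in iTgMir483 replicates 1 to 6. In 5 of 6 transgenic livers it lay above every Control, and replicate 1 lay among them. Its log2 fold change of 0.83 (SE 0.24) had an adjusted p of 0.0281. The call was lost without Control replicate 2, 4 or 6 and without iTgMir483 replicate 3 or 5, with adjusted p up to 0.0691, and the log2 fold change stayed between 0.71 and 0.96. Its exons overlap those of Gm27177 on the other strand and hold Mir6950.

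Loxl3 had 2.24, 2.49 and 3.28 CPM in Controls and 2.93, 3.22 and 4.25 CPM in iTgMir483 livers, with 3 of 6 above every Control. Its log2 fold change was 0.39 (SE 0.16, adjusted p 0.0953), and its exons overlap those of Htra2 on the other strand. Loxl4 had 0.863, 1.41 and 3.42 CPM in Controls and 1.47, 2.07 and 4.56 CPM in iTgMir483 livers, a log2 fold change of 0.47 (SE 0.38) and an adjusted p of 0.42. Loxl1, the enzyme needed to renew elastic fibres, had 0.457, 1.34 and 1.84 CPM in Controls and 0.501, 1.22 and 2.58 CPM in iTgMir483 livers. These ranges lay almost on top of each other, with a log2 fold change of -0.02 (95% interval -0.83 to 0.78, adjusted p 0.971). Lox itself, the founding member of the family, had 37 counts over Controls and 45 over iTgMir483 livers and at most 12 in any library, with a ratio of 1.44 (exact 95% interval 0.91 to 2.28).

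The sequences of miR-483 are shown because the transgene adds this microRNA, and a matched site in a 3′ UTR is where a direct effect on a message would be looked for. RefSeq (GRCm38.p6) gives these mature forms, with the seed, bases 2 to 8, in capitals.

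miR-483-3p, chr7:142654932-142654952, minus strand: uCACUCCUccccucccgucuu
miR-483-5p, chr7:142654968-142654989, minus strand: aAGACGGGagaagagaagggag

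In the longest GENCODE M21 3′ UTR of each gene, the match to the miR-483-3p seed, AGGAGTG, was present in 6 of the 54 members with a UTR (11.1%) and in 10.7% of all 20973 protein-coding genes with one. The match to the miR-483-5p seed, CCCGTCT, was present in 3 of 54 (5.56%) and in 2.66% of all genes, while the members' UTRs were longer, with a median of 1632 bases against 955 bases. The miR-483-3p match was found in Adamts10, Adamtsl1, Mmp9, Mmp28, Timp2 and Timp3, and the miR-483-5p match in Adamts15, Timp2 and Timp3. The sites of Adamtsl1, a gene that was higher in iTgMir483 livers, and of the 2 inhibitors, which hold a match to both arms, are printed with the match in capitals (GRCm38).

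Adamtsl1, miR-483-3p, chr4:86426301-86426327, plus strand: caggccaatcAGGAGTGccgttccttt
Timp2, miR-483-3p, chr11:118303418-118303444, minus strand: tgctacaggcAGGAGTGgagcacagac
Timp2, miR-483-5p, chr11:118301675-118301701, minus strand: tccagcctctCCCGTCTtttgtatctg
Timp3, miR-483-3p, chr10:86346486-86346512, plus strand: gacagactgtAGGAGTGggtctcacag
Timp3, miR-483-5p, chr10:86346628-86346654, plus strand: aggcaacctgCCCGTCTgtacaaaaaa

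The log2 fold changes of the 5 tested genes with the miR-483-3p match ran from -0.17 for Timp3 to 1.21 for Adamtsl1, and Timp3 was the only one of them with a negative value. None of the tested genes with a match to either arm was called lower in iTgMir483 livers, beside 2.73% of all tested genes. At that share so few genes would mostly give no lower call, and an effect of the sites was not tested. For these livers the study reports repression of messages with conserved predicted sites for an arm of the microRNA, but not for the other arm. The untested gene with a match, Mmp28, had the lower counts in iTgMir483 livers given above, 78 against 41, with overlapping groups. A match says that the letters are there, and binding was not measured.

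Other genes of the same pathway were taken from lists chosen with results of these data known. Of all tested genes 8.41% were called higher and 2.73% lower, and no list was tested against these shares. In the plasminogen system, whose proteases also activate metalloproteinases, 2 of 7 tested genes were higher and 1 lower. Plau, the urokinase activator, was higher by 0.71 on the log2 scale (SE 0.23, adjusted p 0.0404), and Serpine2, a protease inhibitor, was lower (log2 fold change -1.40, SE 0.45, adjusted p 0.0421). Among the cysteine cathepsins 2 of 6 were higher, Ctsk by 0.87 and Ctss by 0.67. Of 5 tested ADAM sheddases 1 was higher (Adam15), and of 7 other matrix proteases and regulators 1 (Pcolce, which enhances procollagen C-proteinase), whereas Reck, a membrane inhibitor of metalloproteinases, differed by 0.04 (SE 0.13).

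The list of genes for collagen modification and crosslinking gave 4 higher and 1 lower gene of 15 tested, beside 8.41% higher and 2.73% lower among all tested genes. Plod2, a lysyl hydroxylase that sets which crosslinks form, was higher by 0.96 on the log2 scale (SE 0.27, adjusted p 0.0227). The prolyl 3-hydroxylases P3h2 and P3h3 and the collagen chaperone Serpinh1 were higher by 0.71, 0.68 and 0.62, and the prolyl 4-hydroxylase subunit P4ha2 was lower (log2 fold change -0.82, SE 0.20, adjusted p 0.0108). Among 12 tested substrates 3 were higher and 0 lower by edgeR, and 6 had an unadjusted p under 0.05, all of them positive (DESeq2 called 4 and limma-voom 3). Fbn1, the microfibril protein fibrillin, rose by 0.89 (SE 0.16, adjusted p 0.00231), Col4a1 by 0.72 and Col5a2 by 0.61, while Col1a1 differed by 0.69 (SE 0.35, adjusted p 0.189). The substrates' median log2 fold change was 0.58 and that of the collagen modification and crosslinking list 0.33, beside 0.01 for all tested genes.

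**Figure D5:**
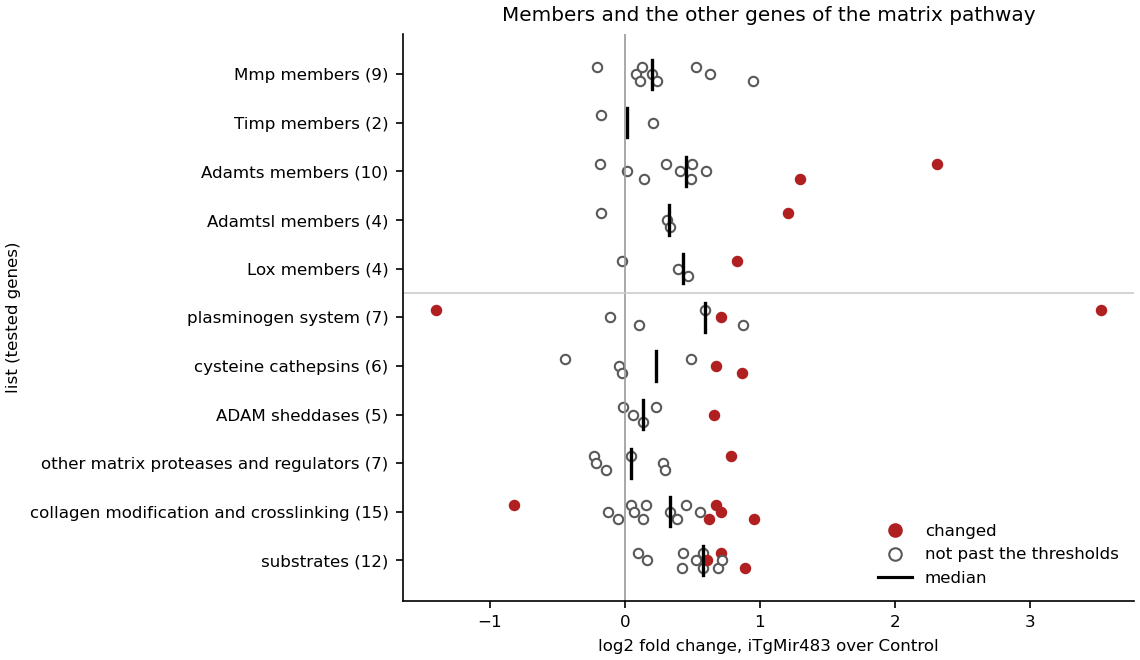
Each point is the log2 fold change of a tested gene (iTgMir483 over Control), for the 5 families above the grey line and 6 pathway lists below it, with filled points for changed genes and black lines at the medians. Adamts9 is the farthest point to the right among the families, and Serpine2 and P4ha2 are the changed genes to the left of 0.

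Markers of further cell types were measured in the same way, beside 8.41% called higher and 2.73% called lower among all tested genes. No marker of stellate cells and fibroblasts was called changed by edgeR, DESeq2 or limma-voom, at 0 of 10, and 3 had an unadjusted p under 0.05 in edgeR and DESeq2 and 2 in limma-voom, with summed levels of 156.2 to 243.4 CPM in Controls and 213.7 to 273.7 CPM in iTgMir483 livers. In this list Hgf and Rgs5 had adjusted p of 0.00556 and 0.00308 with log2 fold changes of 0.57 and 0.54, under the fold threshold. Endothelial markers gave 0 of 8 by each tool, 3 of them with an unadjusted p under 0.05, with sums of 280.7 to 330.8 and 262.0 to 378.2 CPM. Cholangiocyte markers were higher for 4 of 6 tested genes of 7, with sums of 21.5 to 46.8 CPM in Controls and 61.6 to 91.9 CPM in iTgMir483 livers, most of which was Spp1, a gene also in the recruited macrophage list. Of 6 hepatocyte markers 1 was lower and 0 higher, with sums from 127400 to 175400 CPM in Controls and from 62530 to 135000 CPM in iTgMir483 livers. Of 5 adipose markers none passed the filter, and Lep was at 0. The part of any of these cells in the differences of Adamts9, Adamts7, Adamtsl1 and Loxl2 was not tested.

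Without both replicate 1 libraries, 7 of the same 29 members were changed, all 4 of the genes above together with Adamts10, Adamts2 and Mmp23. Calls also rose over all genes, from 1470 of 13205 with all libraries to 1696 of 13226 without these libraries. Without them the log2 fold change was 2.59 for Adamts9, 1.46 for Adamts7, 1.18 for Adamtsl1 and 1.03 for Loxl2. Adamts10 reached 0.59 (adjusted p 0.0045 by edgeR), Adamts2 0.65 (adjusted p 0.0214) and Mmp23 0.75 (adjusted p 0.0319). Adamts4 also passed the filter there, but through the iTgMir483 livers, where it is high, so its call is not counted. Of the 29 tested members, iTgMir483 replicate 1 held the lowest transgenic value for 12, among them Adamts1, Adamts2, Adamts9, Adamts10 and Loxl2, and the highest for 5, which were Adamtsl1, Mmp11, Mmp15, Mmp19 and Mmp23. Control replicate 1 held the highest Control value for 8, among them Adamts7, Adamts9, Adamts10, Mmp15 and Mmp23, and the lowest for 5, which were Adamts1, Adamts14, Adamtsl4, Mmp11 and Mmp14.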

How the data were processed

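The authors prepared stranded poly(A) libraries from liver RNA, sequenced paired-end reads, aligned them to GRCm38 with STAR and deposited raw counts per Ensembl gene, and whether counting used strand is not given in the sources used here, so counts of genes whose exons overlap another gene are uncertain. Symbols, biotypes, positions and exon lengths came from GENCODE M21 (GRCm38), which named 55141 of 55401 gene identifiers. Library totals ranged from 12244123 to 30431286 counts. Groups came from the sample titles. Counts were filtered with filterByExpr (13205 genes kept), scaled by TMM and compared with edgeR's quasi-likelihood test (edgeR 4.0.16, R 4.3.3) over all genes, with Benjamini-Hochberg adjustment. A changed gene has an adjusted p under 0.05 and differs by over 1.5-fold. Two-sided exact permutation tests used log2(CPM + 0.5) over all 924 assignments of mice. Ratios of summed counts have exact 95% intervals, which cover counting error only. The fit was tested on simulated data. Alternatives were RLE scaling, 2 other count filters, 2 other fold rules, DESeq2 1.42.0, limma-voom (limma 3.58.1), a replicate block and libraries left out. Deviations of same-numbered mice from their group means correlated at 0.44 for replicate 1, 0.167 for replicate 5 and 0.034 to 0.053 for the other 4 pairs, so the numbers were not taken to pair the mice. Genes described singly were every changed gene, every gene with an adjusted p under 0.05, the tested Timp and Lox genes and the highest gene per kb of each family, and others are given by values or range. Some genes of the lists are counted but not reported here by name. The members and lists were chosen with earlier results of these data known.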

Additional observations from a re-analysis of the deposited data

Results flagged for a closer look

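In 7 of 62 groups of 6 livers, 1 library lay far from the rest, where chance alone gives about 3.1, so single entries carry little weight. The measure is the gap to the nearest other library as a share of the group's whole range. Of the iTgMir483 replicate 4 library, Timp3 stood out at 0.809 (68.2 CPM against 32.5 to 39.4 CPM in the others) and Mmp27 at 0.677 (3.66 against 0.36 to 1.43 CPM). Of Control replicate 1, Mmp15 stood out at 0.798 (36.5 against 19.6 to 23.0 CPM) and Mmp23 at 0.634 (1.57 against 0.767 to 1.06 CPM). Adamts4 in iTgMir483 replicate 1 had a share of 0.702 (0.291 against 1.5 to 2.01 CPM). Adamts16 had a share of 0.647 in iTgMir483 replicate 3 (2.10 against 0.291 to 0.929 CPM) and of 1.0 in Control replicate 3, where that is 1 count against 0 in the other Controls. The causes were not tested.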

How the results depend on the processing

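The same 4 members were changed with RLE size factors, DESeq2, limma-voom and the replicate block (4 members in each), and the block changed no other call of a member. Over all 13205 tested genes 1469, 1629, 1412 and 1530 were changed in these fits, in that order, and 1470 in the main fit. Without a filter on low counts 7 members were changed and all higher, with 1 Mmp gene (Mmp8) and 5 Adamts and Adamtsl genes (Adamts16 and Adamts4 added). Over all genes 1567 of 26863 were changed in that fit. With at least 10 counts in every library 2 were changed and higher, 1 of them an Adamts gene, because Adamts9 and Adamtsl1 were not tested there. All genes gave 1192 changed of 11714. Tested against a fold change of 1.5, 1 member was changed and higher (Adamts9, 1 Adamts gene), with 0 Lox genes, and 226 of all 13205 genes were changed. On the adjusted p alone, 5 members and 2457 of all 13205 genes were called. Without both replicate 1 libraries 8 members were changed and higher, with 1 Mmp gene and 6 Adamts and Adamtsl genes, and 1696 of all 13226 genes were changed. Leaving out 1 library at a time gave 3 to 6 changed members, 0 to 1 Mmp genes and 0 to 1 Lox genes, and 1190 to 1653 changed genes in all. The member counts include Adamts4 or Adamts12 where the smaller groups let them pass the filter through the group in which they are high. Of the 29 members tested throughout, 7 were changed without both replicate 1 libraries and 3 to 5 with 1 library left out. Directions turned only for differences near 0: Adamts6 (0.12), Loxl1 (0.0222) and Mmp9 (-0.0431) without both replicate 1 libraries, and Adamts13 without the filter (-0.006), with limma-voom (-0.0182) and with the replicate block (-0.0143). With 1 library left out, log2 fold changes ran from -0.0756 to 0.111 for Adamts13, from -0.37 to 0.15 for Loxl1, from -0.0586 to 0.281 for Mmp9 and from -0.0465 to 0.168 for Mmp19. The causes were not tested. Depth limits the 26 untested members, 12 of which had at most 3 counts in every library.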
